A study of Homo sapiens with 3 samples.

Results

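The cells described here were those with high ghrelin RNA in beta cell differentiations of 3 PAX6 genotypes. A cell was taken when GHRL, the gene of the peptide hormone ghrelin, made up at least 25 of every 10000 of its UMIs, the counted RNA molecules. It also had to hold 1000 to 40000 UMIs and at least 500 genes, and to have no more than 20% mitochondrial UMIs. This gave 324 cells of the 25463 barcodes that passed the same filters. Of these, 41 were in the WT library, 72 in HET and 211 in KO. GHRL itself chose the cells, so its level in them is a description, and no test was made on it.

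H1 is a widely used human embryonic stem cell line, and all cells were taken from it through a protocol toward pancreatic beta cells. The unedited line is called WT, PAX6+/- cells HET and PAX6-/- cells KO. Each genotype had 1 droplet library made with 10x Genomics chemistry, so genotype and library cannot be told apart in any comparison below. No p-value is given, and 95% intervals cover counting error only. The position of the PAX6 lesion, the number of clones and the day of collection are not stated.

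Ghrelin is made mainly in the stomach and, in the islet, by epsilon cells, a small endocrine population that is more prominent in the fetal than in the adult pancreas. The peptide is cut from its precursor by the convertase encoded by PCSK1 and is acylated by the enzyme encoded by MBOAT4, which lets it act on the receptor GHSR. PAX6, PAX4 and NKX2-2 are transcription factors that shape the choice between islet cell types, and mouse embryos without Pax6, Pax4 or Nkx2-2 have been described with more ghrelin cells in the pancreas.

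GHRL lies on chromosome 3, at 10285675 to 10292947 on the minus strand (GRCh38). The 250 bases before its RefSeq start (chr3:10292948-10293197, minus strand, GRCh38.p14) are shown because GHRL defines the cells. Beside them are those of COL12A1 (chr6:75206054-75206303, minus strand), a collagen gene that, after GHRL, stood furthest above the other endocrine cells in all 3 libraries among genes with 1 RefSeq window. Capitals mark matches on either strand to TAAT, the core bound by many homeodomain factors, to CANNTG, the E-box bound by factors of the NEUROG3 and NEUROD1 class, and to TATAAA, the TATA box. The motifs did not overlap.
GHRL: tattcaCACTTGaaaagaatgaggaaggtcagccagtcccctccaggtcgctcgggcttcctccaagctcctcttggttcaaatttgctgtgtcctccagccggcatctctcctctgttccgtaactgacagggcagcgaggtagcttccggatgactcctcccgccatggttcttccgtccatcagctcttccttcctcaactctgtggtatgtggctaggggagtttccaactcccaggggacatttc
COL12A1: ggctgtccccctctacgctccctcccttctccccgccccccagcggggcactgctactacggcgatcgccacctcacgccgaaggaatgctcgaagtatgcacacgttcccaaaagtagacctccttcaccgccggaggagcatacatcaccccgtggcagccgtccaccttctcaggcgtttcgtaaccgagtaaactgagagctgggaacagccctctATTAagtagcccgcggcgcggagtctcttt
The GHRL window held 1 CANNTG and no TAAT or TATAAA, and the COL12A1 window held 1 TAAT and neither of the others. Over all 27305 genes with a window of this length, 48.2% held TAAT, 62.2% CANNTG and 11.1% TATAAA. Of the 55 genes found higher in GHRL-high cells below, 41 had a window, and TAAT was in 9 of them (22.0%), CANNTG in 25 (61.0%) and TATAAA in 5 (12.2%). A match is a run of letters and not evidence of binding. The GHRL window lies inside GHRLOS, an antisense transcript (chromosome 3, 10285754 to 10293449, plus strand). GHRLOS had 3, 8 and 13 UMIs in the GHRL-high cells of WT, HET and KO. Whether reads were assigned by strand is not stated.

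GHRL-high cells were 0.483% of kept WT barcodes (0.347 to 0.655), 0.868% of HET barcodes (0.680 to 1.09) and 2.43% of KO barcodes (2.12 to 2.78). The 3 intervals did not overlap, and the KO interval lay well above the others. A second denominator is the cells with endocrine RNA, those with CHGA, the gene of the granule protein chromogranin A, at 10 or more per 10000 UMIs. Besides the GHRL-high cells there were 1564, 553 and 908 such cells, called the other CHGA-high cells below. Of both kinds together, GHRL-high cells made up 2.55% in WT (1.84 to 3.45), 11.5% in HET (9.12 to 14.3) and 18.9% in KO (16.6 to 21.3). The larger step lay between WT and HET on this measure and between HET and KO on the first; the HET library held the fewest other CHGA-high cells. The order of the libraries was the same with GHRL thresholds of 10, 50 and 100 per 10000.

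**Figure D1:**
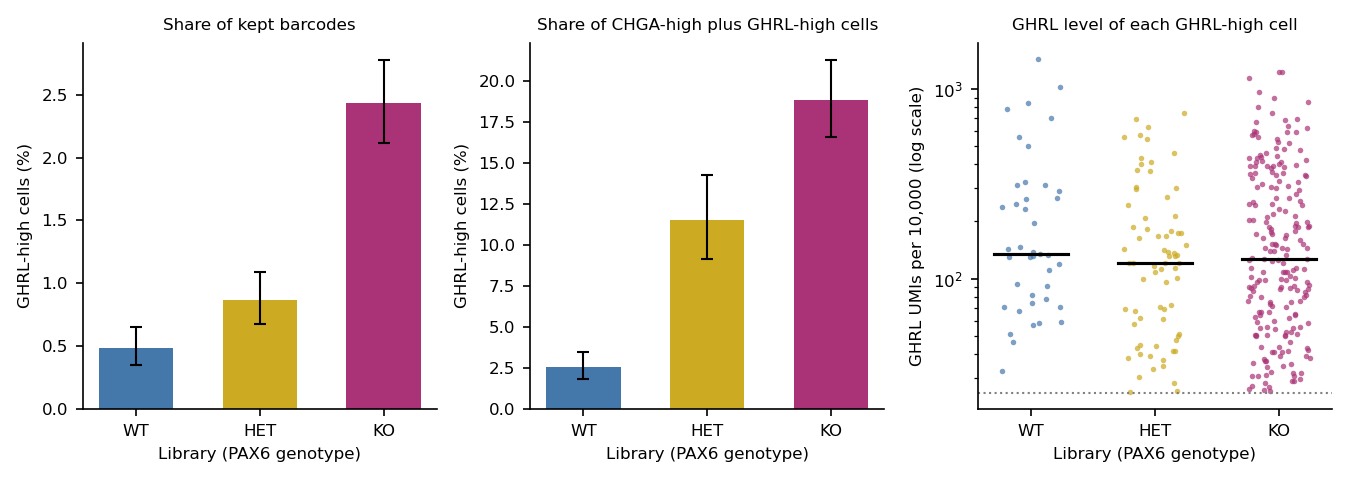
Share of GHRL-high cells among kept barcodes and among CHGA-high plus GHRL-high cells (percent, bars are exact 95% binomial intervals), and GHRL per 10000 UMIs in each GHRL-high cell on a log axis (black line, median; dotted line, the threshold of 25), by library. The shares are 0.483%, 0.868% and 2.43% on the left and 2.55%, 11.5% and 18.9% in the middle, while the medians of GHRL per cell on the right lie between 120.5 and 135.

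GHRL in these cells, cut at 25 per 10000 by the rule, is given as a description. In WT cells GHRL ran from 32.4 to 1437 per 10000 UMIs with a median of 135. In HET cells it ran from 25.1 to 747 with a median of 120.5, and in KO cells from 25.5 to 1232 with a median of 127. The medians lay close together, and the highest HET cells reached less far than the highest WT and KO cells. In the richest cell of each library GHRL was 14.4%, 7.47% and 12.3% of all UMIs. GHRL-high cells held 87.6%, 88.7% and 92.4% of the GHRL UMIs of their libraries. Just below the threshold, between 20 and 25 per 10000, lay 7 WT, 6 HET and 11 KO cells, and just above it, between 25 and 30, lay 0, 3 and 9.

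Median depth was close in the 3 libraries, but 19 KO cells held fewer than 5000 UMIs, against 2 in WT and 2 in HET. The median UMI counts were 12876 in WT, 13977 in HET and 12823 in KO, against 13174, 13115 and 12569 in other CHGA-high cells. Their mitochondrial share, a sign of RNA quality, had medians of 6.02%, 7.96% and 8.86%, and 6.45%, 8.56% and 8.98% in other CHGA-high cells, so it was higher in HET and KO in both. Its part in the differences between libraries was not tested. Doublets were scored but not removed, since the caller marked no barcode; the top 8% of scores held 9, 14 and 27 GHRL-high cells, or 22.0%, 19.4% and 12.8% of them, against 14.0%, 16.5% and 11.6% of other CHGA-high cells. No barcode was GHRL-high in more than 1 library, and 1 KO cell shared its barcode with a kept WT barcode. CHGA was below 10 per 10000 in 4 WT, 7 HET and 18 KO cells.

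The name of the cells was held against gene lists. Counts were summed over the cells of a class in each library and scaled to CPM, counts per 1000000. A gene was called higher or lower when it reached 50 CPM in 1 of the sums and stood 2-fold apart in all 3 libraries. Of 4212 genes that reached this level, 55 were higher in GHRL-high than in other CHGA-high cells (1.31%) and 53 were lower (1.26%). For each gene the single GHRL-high cell with the most UMIs of it was then left out, a setting chosen after seeing the data. Of the 55 higher calls 35 were kept. The step takes RNA from the GHRL-high sums alone, so it could hardly end a lower call. All 53 lower calls were kept and the lower genes came to 77, which does not show how firm they are. GHRL, CRH, ACSL1 and MLN were given as markers of these cells from these same data and are no independent support for the name; the first 3 were called higher. MLN, the gene of motilin, which is often made together with ghrelin (chromosome 6, 33794673 to 33804011), was found in 3 of 41 WT, 3 of 72 HET and 11 of 211 KO cells. Its level was 19.9, 462 and 7.99 CPM, and 1 HET cell held 99.6% of the HET counts. MLN therefore did not mark the cells as a group.

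Of 19 genes known from epsilon cells of human islets, 5 reached 50 CPM, and 2 of the 5, GHRL and VSTM2L, were higher in all 3 libraries. GHRL chose the cells, so 1 of the 4 remaining genes was called. The median log2 ratio of these 4 to other CHGA-high cells was 0.81 in WT, 0.77 in HET and 1.78 in KO, against -0.09, -0.04 and 0.02 over all genes tested. VSTM2L, a secreted protein of the immunoglobulin type, was 219, 188 and 191 CPM in GHRL-high cells and 61.0, 44.6 and 40.7 CPM in the others. SPTSSB, a subunit of the enzyme that starts sphingolipid synthesis, was 220.4, 195 and 226 CPM against 118, 87.3 and 62.1, which was 1.87-, 2.23- and 3.64-fold higher. DEFB1, of the same list, was at 0 in WT and HET. With 1 called gene besides GHRL the list gives the name little support, and the cells are called GHRL-high cells here.

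Genes that act on ghrelin were present at low or ordinary levels. MBOAT4, the acyltransferase, was 4.97, 9.23 and 4.51 CPM in GHRL-high cells and 0.187, 1.10 and 0.475 CPM in other CHGA-high cells. It was seen in 2 of 41 WT, 10 of 72 HET and 13 of 211 KO cells, and did not reach 50 CPM. MBOAT4 is also on the list of epsilon genes above. It was higher in GHRL-high cells in all 3 libraries but, under 50 CPM, was not counted there. PCSK1, the convertase, was 96.1, 140.1 and 215 CPM against 110.1, 89.99 and 130.3. PCSK2, the convertase of glucagon and insulin maturation, was lower, at 79.6, 43.6 and 63.9 CPM against 169.6, 142 and 225. GHSR, the ghrelin receptor, and MLNR, the motilin receptor, had no count in any class.

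ACSL1 (chromosome 4, 184755595 to 184826818, minus strand), which joins long-chain fatty acids to coenzyme A, was 375, 349 and 355 CPM in WT, HET and KO, nearly level, against 28.3, 42.3 and 65.1 CPM in other CHGA-high cells. The ratio was 13.2, 8.25 and 5.45, and it was smaller in KO because the other cells held more. It was the only gene called among 46 fatty acid genes, of which 17 reached 50 CPM, and the list's median log2 ratios were -0.26, -0.33 and -0.20. ACOT7, which cleaves the same acyl-CoA esters, was 113, 138 and 134 CPM against 27.0, 28.4 and 27.6. It reached 50 CPM only in GHRL-high cells, so it could be called higher but not lower. FFAR4, a receptor for long-chain fatty acids, was 34.8, 29.4 and 37.5 CPM against 3.22, 1.72 and 4.59, a ratio of at least 8.17, but lay under 50 CPM and was not counted.

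A list of 26 receptors of ghrelin cells had 4 genes at 50 CPM and none called. Outside that list, some of the genes furthest above the other cells encode surface proteins. HRH1, the histamine H1 receptor (chromosome 3, 11137093 to 11263557), was 24.9, 60.4 and 50.7 CPM against 2.24, 7.97 and 5.22. IL20RA, a subunit of the receptors for the interleukin-20 family (chromosome 6, 136999971 to 137045180), was 54.7, 248 and 129.9 CPM against 11.4, 6.74 and 8.86. COL12A1, the collagen XII chain (chromosome 6, 75084326 to 75206051), was 63.0, 57.9 and 74.3 CPM against 1.63, 5.15 and 6.09. For all 3 genes every GHRL-high sum lay above every other sum, but they were named for their large ratios in all 3 libraries. These 3 genes reached 50 CPM only in GHRL-high cells, so they could be called higher but not lower. SLITRK6, a neuronal surface protein, and CHL1, an adhesion molecule, were higher by 4.03-fold or more in each library. RAPGEF4, a cyclic AMP sensor of secretory cells, was 38.1, 75.5 and 72.6 CPM against 8.59, 13.0 and 13.8. It too reached 50 CPM only in GHRL-high cells.

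Secreted products were the next group. TTR, the gene of transthyretin, a thyroid hormone carrier made in liver and in islet alpha cells, was 32962, 20667 and 18834 CPM against 8565, 5802 and 2598. With cells thinned to 5000 UMIs, 87.2%, 88.6% and 88.0% of GHRL-high cells held at least 5 UMIs of TTR, against 72.0%, 63.9% and 53.2% of the others. STC1, the hormone stanniocalcin 1, was 209, 233 and 148 CPM against 35.7, 28.7 and 35.0, and FST, which binds activin, was 128, 41.9 and 38.2 CPM against 12.8, 9.69 and 6.81. Both reached 50 CPM only in GHRL-high cells, so they could be called higher but not lower. CRH, which encodes corticotropin-releasing hormone, was 229, 1986 and 2664 CPM against 51.6, 137 and 233, a ratio of 4.43 in WT, 14.5 in HET and 11.4 in KO. NPY, the gene of neuropeptide Y (chromosome 7, 24284163 to 24291865), was 355 CPM in WT but 12.6 and 9.37 CPM in HET and KO.

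**Figure D2:**
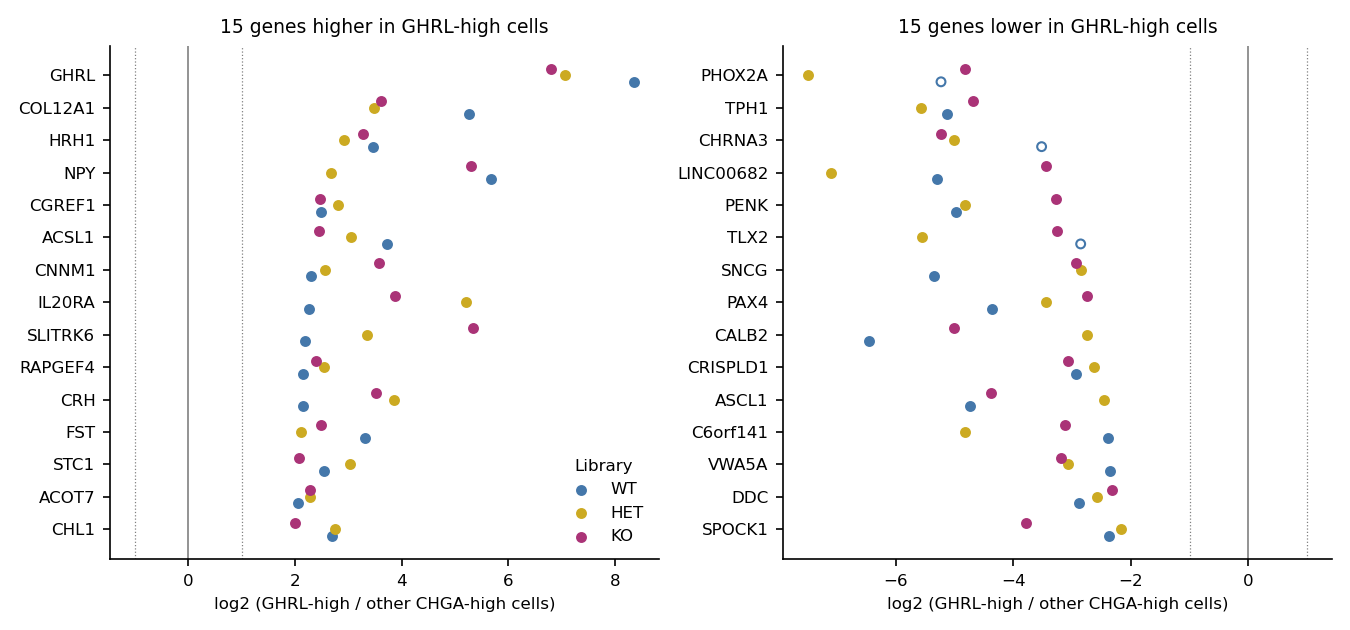
Log2 ratio of the level in GHRL-high cells to that in other CHGA-high cells for the 15 genes furthest above and the 15 furthest below in all 3 libraries, with 1 dot per library (hollow dots, no count in GHRL-high cells, set to the floor of 3 counts; dotted lines, 2-fold). GHRL chose the cells and stands at the top; PHOX2A, TPH1 and CHRNA3 are the first of the lower genes.

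Genes lower in GHRL-high cells included those of enterochromaffin and PHOX2A-type neuroendocrine cells. Of 8 markers of the latter, 6 reached 50 CPM and 5 were lower in all 3 libraries, against 1.26% of all genes tested. The medians of the 6 were -4.13, -5.29 and -3.91 on the log2 scale. PHOX2A, CHRNA3 and TPH1 reached 50 CPM only in the other cells, so they could be called lower but not higher. PHOX2A, a factor of autonomic neurons, was 0, 0.839 and 9.03 CPM in GHRL-high cells and 187, 151 and 256 CPM in the others. A count of 0 in WT, set to the floor of 3 counts in the sum, made it at least 37.6-fold lower there. CHRNA3, a nicotinic receptor subunit, was 0, 2.52 and 4.17 CPM against 57.0, 81.4 and 157. TPH1, the first enzyme of serotonin synthesis in gut endocrine cells, was 3.31, 4.19 and 19.8 CPM against 116, 199 and 511. DDC, the next enzyme, was 19.9, 26.8 and 61.5 CPM against 147, 159.6 and 308; TPH1 and DDC were the 2 genes called lower among 11 enterochromaffin markers, of which 4 reached 50 CPM.

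Most transcription factors of the islet were within 2-fold of the other cells. PAX4, which favours the beta and delta fates, was 3.31, 9.23 and 24.7 CPM against 68.1, 101 and 165. NKX6-1, a beta cell factor, was 14.9, 17.6 and 28.1 CPM against 84.3, 67.3 and 89.99. NKX2-2, shared by islet cells, was 154, 233 and 308 CPM against 82.2, 109 and 154; its ratios of 1.87 in WT and 1.99 in KO missed 2-fold. Of 37 islet transcription factors 25 reached 50 CPM, and PAX4 and NKX6-1 were the 2 called lower, with none higher. Both reached 50 CPM only in the other cells, so they could be called lower but not higher. Over all genes tested 1.31% were called higher and 1.26% lower. BTBD17, GADD45A and ACOT7 were the 3 called higher among 19 genes of the NEUROG3 cascade, of which 14 reached 50 CPM; PAX4 was the 1 called lower. GADD45A was no longer called without its top cell. NEUROG3 itself, the factor that starts the endocrine programme, was 34.8, 12.6 and 5.90 CPM against 5.18, 4.54 and 6.09.

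Shared endocrine genes were mostly alike in both classes. Of 18 pan-endocrine genes at 50 CPM, PCSK2 was called lower and none higher. The PCSK2 call was made in 6 of 10 other settings of the processing. CHGA was 7636, 5708 and 6748 CPM against 8241, 7323 and 8029. Among 21 granule and exocytosis genes at this level, PCSK2 and SYT13 were lower. None of 25 IRE1-XBP1 genes of the unfolded protein response, of 10 PERK-ATF4 genes or of 6 ion channel genes at 50 CPM was called in either direction.

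Markers of other cells gave the following sums in WT, HET and KO. The 14 progenitor and duct markers came to 4591, 4666 and 4119 CPM in GHRL-high cells and 3835, 3991 and 3253 CPM in other CHGA-high cells, with none of 10 genes at 50 CPM called; MUC1 was at 0 in WT. The 11 mesenchymal markers came to 787, 545 and 454 CPM against 1355, 872 and 739, and DCN and LUM were at 0 in WT and KO, PDGFRA in WT and HET and COL3A1 in WT. The 14 proliferation genes came to 277, 272 and 108 CPM against 109, 171 and 145, with none at 0. Of these 14, 2 reached 50 CPM and none was called. TOP2A was 2-fold lower in KO and HET than in WT GHRL-high cells, and CENPF was lower in KO than in HET. None of these calls was kept without each gene's top cell. Of 6 pluripotency markers, POU5F1 and TDGF1 were at 0 in every GHRL-high sum.

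The profile chosen in a pair of libraries was then read in the remaining one, without GHRL. The same GHRL rule chose the cells of all 3 libraries, so this describes how alike they are and is no independent support. Of 59 genes that were 2-fold higher in both HET and KO, 38 were also 2-fold higher in WT (64.4%). The corresponding numbers were 36 of 41 in HET (87.8%) and 35 of 41 in KO (85.4%), against 2.35%, 2.41% and 3.17% of all genes tested in these libraries. Genes lower in the other pair were lower again for 35 of 50 in WT (70.0%), 37 of 45 in HET (82.2%) and 35 of 51 in KO (68.6%), against 3.29%, 2.79% and 2.58% of all genes. The chosen genes could lie under 50 CPM in the library read, while the shares of all genes cover only genes at 50 CPM. The thresholds of these shares are therefore unlike. Per cell, the summed RNA of the higher genes had a median of 313 per 10000 UMIs in WT GHRL-high cells and 63.9 in other CHGA-high cells. In HET it was 207 against 43.3, and in KO 180 against 30.0. TTR, described above, made up 79.3%, 69.4% and 66.4% of these sums in GHRL-high cells. Without it the medians were 88.0, 82.4 and 82.6 per 10000 in GHRL-high cells of WT, HET and KO and 31.2, 20.5 and 18.3 in other CHGA-high cells. Cells with GHRL between 10 and 25 per 10000, 30, 24 and 54 in number, had medians of 53.8, 53.7 and 56.6 without TTR. These lay between the medians of the GHRL-high and the other CHGA-high cells. They are not a separate class: all but 3, 0 and 3 of them had CHGA of 10 or more and are among the other CHGA-high cells.

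Many GHRL-high cells carried the RNA of a second hormone. At 5 or more UMIs in cells thinned to 5000, which left 39 WT, 70 HET and 192 KO cells, CRH was found in 7.69% (1.62 to 20.9), 45.7% (33.7 to 58.1) and 51.0% (43.7 to 58.3). In other CHGA-high cells the shares were 1.54%, 2.86% and 7.61%. In kept barcodes with low CHGA, which should lack the gene, the shares were at most 0.0947%. Before thinning, 48.8%, 81.9% and 87.2% of GHRL-high cells had a UMI of CRH.

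INS, the insulin gene, was found at this level in 28.2%, 28.6% and 32.3% of GHRL-high cells, against 58.5%, 52.5% and 25% of other CHGA-high cells. GCG, the glucagon gene, was found in 30.8%, 15.7% and 7.81%, against 37.1%, 28.6% and 5.58%. RNA of these 2 genes in barcodes with low CHGA limits how they can be read. At least 1 UMI of GCG was present in 95.6% of WT barcodes with low CHGA, and 5 of 5000 UMIs in 2.35% of them. For INS the latter share in WT was 1.37%. Whether this was free RNA was not tested. The GHRL-high shares lay above these WT shares at 5 of 5000 UMIs. SST, the somatostatin gene, was found in 10.3%, 4.29% and 2.60%, and PPY, the pancreatic polypeptide gene, in 12.8%, 2.86% and 0.521%. GAL, the galanin gene, was found in 2.56%, 14.3% and 9.90%, and NPY in 15.4% of WT cells and in none of the HET or KO cells. MLN reached 5 UMIs in 0 of 39 WT cells; a count of 0 set to 3 cells allows a share of up to 7.69% at that level.

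Most GHRL-high cells had no major islet hormone besides ghrelin. None of INS, GCG, SST and PPY reached 5 of 5000 UMIs in 21 of 39 WT cells (53.8%), 46 of 70 HET cells (65.7%) and 120 of 192 KO cells (62.5%). With CRH, PYY, GAST, GAL, NPY and MLN also counted, 35.9%, 35.7% and 28.1% had GHRL alone.

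**Figure D3:**
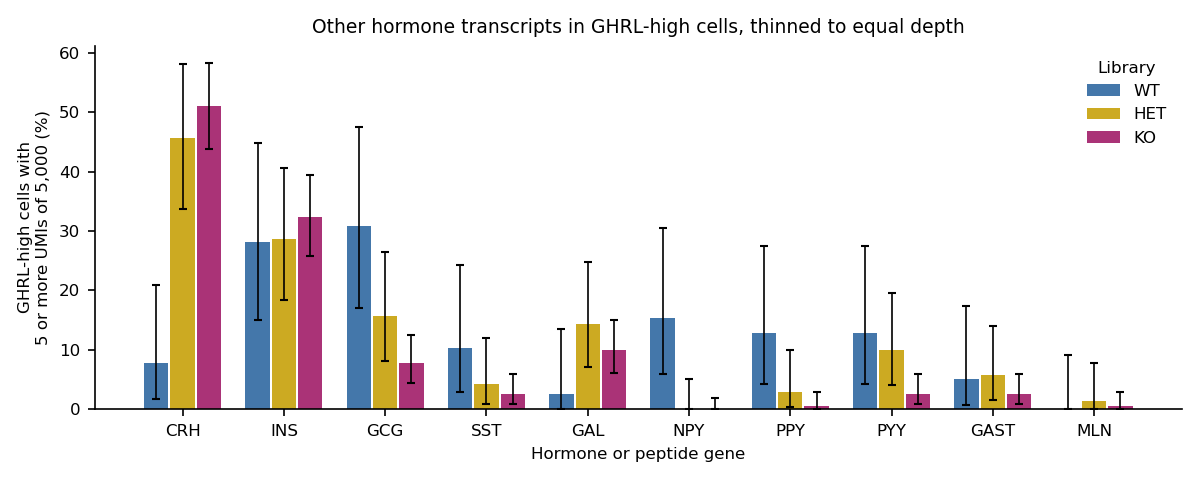
Percent of GHRL-high cells with at least 5 UMIs of each hormone gene in 5000 (bars, exact 95% binomial intervals) in 39 WT, 70 HET and 192 KO cells. CRH stands at 7.69%, 45.7% and 51.0%, INS near 30% in all 3 libraries, and GCG is lower in HET and KO than in WT.

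PAX6, the edited gene (chromosome 11, 31784779 to 31818062, minus strand), was 217 CPM in WT GHRL-high cells, 247 CPM in HET and 486 CPM in KO. In other CHGA-high cells it was 330.4, 240.2 and 245 CPM. It was therefore 2.24-fold higher in KO than in WT GHRL-high cells (1.87 to 2.70) and 1.35-fold lower in KO than in WT among the others. The place of the lesion is not given, and an edited allele can be transcribed, so this RNA does not check the genotype. PAX6 in cells with GHRL of 100 or more was 104, 208 and 419 CPM, and in those with 25 to 100 it was 493, 340.3 and 569.6 CPM.

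Between KO and WT GHRL-high cells, 3754 genes reached 50 CPM in 1 of the sums; 157 were 2-fold higher in KO (4.18%) and 125 were 2-fold lower (3.33%). Between HET and WT, 95 of 3676 were higher in HET (2.58%) and 96 lower (2.61%). The fewest genes stood apart between KO and HET, with 22 of 3634 genes higher in KO (0.605%) and 35 lower (0.963%). The median log2 ratio over all genes tested was 0.08 for KO against WT, 0.00 for HET against WT and 0.08 for KO against HET. The WT sum rests on 41 cells, and 1 cell can carry much of a gene. Leaving out each gene's top cell takes more from a sum of 41 cells than from the larger KO and HET sums. It therefore moves ratios toward higher in KO and HET. It kept 148 of the 157 genes higher in KO, and 225 were then called higher in KO and 131 in HET. Genes lower in KO came to 71, and those lower in HET to 61. The median log2 ratio of KO against WT moved from 0.08 to 0.18. These counts do not compare how firm the higher and lower calls are.

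CRH and GAL were the hormone genes called higher in KO. CRH was 11.6-fold higher in KO than in WT (9.84 to 13.9) and 8.68-fold higher in HET than in WT (7.31 to 10.4), and 4.52- and 2.66-fold higher in other CHGA-high cells. GAL was 56.4, 341 and 282 CPM in WT, HET and KO, 5.00-fold higher in KO (3.55 to 7.27) and 6.06-fold higher in HET (4.27 to 8.87). In other CHGA-high cells GAL was 146, 127 and 74.1 CPM, with WT highest instead of lowest. Of 11 peptide hormone genes tested between KO and WT, these 2 were called higher and 6 lower, against 4.18% and 3.33% of all genes. In other CHGA-high cells 14 peptide hormone genes were tested, and 3 were higher and 9 lower in KO than in WT. Lower hormone genes in KO were therefore not particular to GHRL-high cells. MLN, at 462 CPM in HET against 19.9 in WT GHRL-high cells, had a larger ratio, carried by the 1 HET cell named above.

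The lower hormones included those of alpha, gamma and gut-type cells. GCG was 15519, 3603 and 635 CPM, 24.5-fold lower in KO than in WT (23.3 to 25.7) and 4.31-fold lower in HET, where 1 cell held 69.9% of the counts. In other CHGA-high cells GCG was 32599, 19201 and 762 CPM, so the KO levels of both classes lay close together. PPY was 535, 191 and 20.5 CPM, 26.1-fold lower in KO (19.7 to 35.1). PYY, of the same family, was 822, 436 and 125 CPM, but 1 cell held 70.2% of the WT counts. GAST, the gastrin gene, was 1044, 179 and 198 CPM, with 87.5% of the WT counts in 1 cell, and its call ended without that cell.

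INS and SST did not follow this order. INS was 1349, 3271 and 2111 CPM in GHRL-high cells, 2.42-fold higher in HET than in WT (2.25 to 2.62) and 1.56-fold higher in KO. In other CHGA-high cells it was 8291, 7424 and 1642 CPM, 5.05-fold lower in KO. SST was 349.7, 2123 and 175 CPM, with 46.9%, 81.3% and 41.7% of the counts in 1 cell, and its KO call ended without the top cells. INS overlaps the INS-IGF2 readthrough gene, so its count depends on how reads were assigned. IAPP, which is stored with insulin, was 41.4 CPM in WT and at 0 in HET and KO, at least 16.5- and 39.8-fold lower against a floor of 3 counts in the sum. It lay under 50 CPM in every GHRL-high sum and so was not counted, and its 25 WT counts came from 4 of 41 cells.

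**Figure D4:**
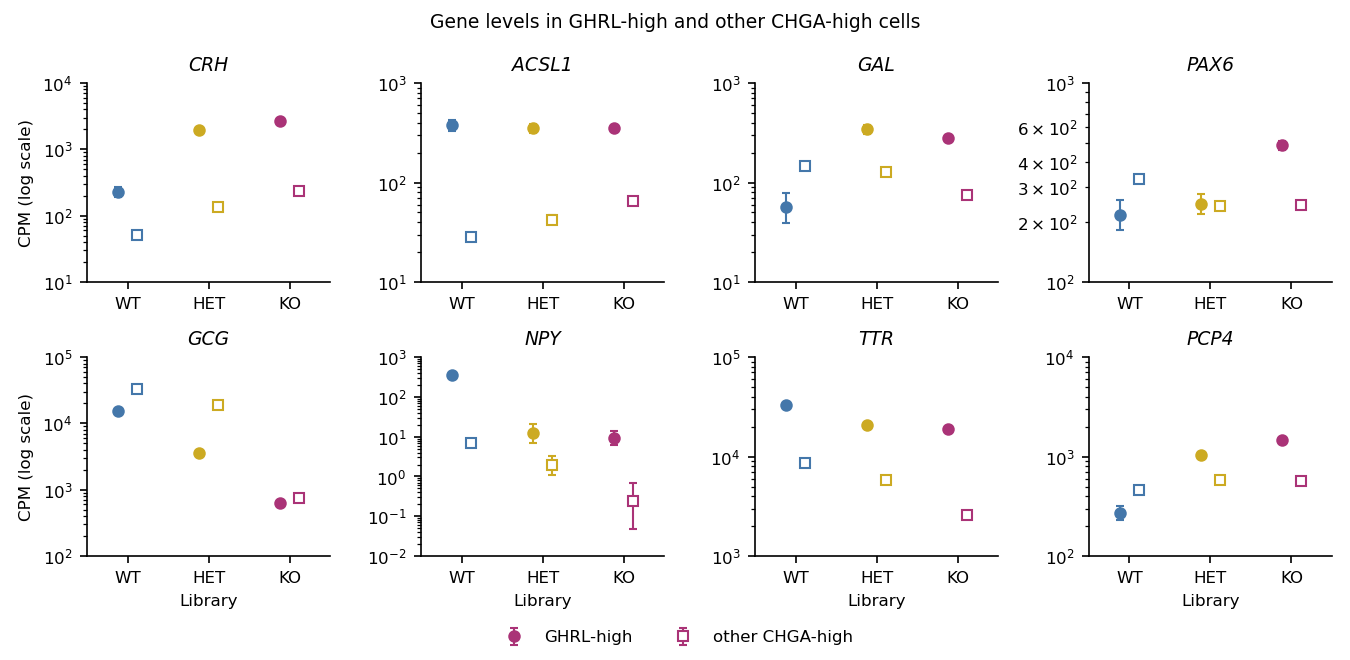
Level in CPM on a log axis of CRH, ACSL1, GAL, PAX6, GCG, NPY, TTR and PCP4 in WT, HET and KO (filled circles, GHRL-high cells; open squares, other CHGA-high cells; bars, 95% Poisson intervals of the counts). CRH goes from 229 to 2664 CPM from WT to KO, GCG from 15519 to 635 CPM, and ACSL1 stays between 349 and 375 CPM.

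Of 18 pan-endocrine genes tested, 4 were 2-fold higher in KO than in WT (INSM1, PAX6, RFX6 and PCSK1) and 2 lower (SCG2 and SCG5), against 4.18% and 3.33% of all genes. PCSK1 was called in 5 of 8 other settings of the processing, and INSM1, PAX6, RFX6, SCG2 and SCG5 in 7 or 8. Of 21 islet transcription factors tested, 3 were higher (PAX6, RFX6 and INSM1) and 4 lower (IRX1, IRX2, MEIS2 and ETV1). INSM1, a factor of newly formed endocrine cells, was 172, 208 and 386 CPM, and RFX6, needed for islet cell formation, was 111, 215 and 261 CPM. In other CHGA-high cells KO against WT was 1.46-fold for INSM1 and 1.22-fold for RFX6. SCG2, the granule protein secretogranin II, was 1896, 564 and 670.5 CPM, 2.83-fold lower in KO (2.63 to 3.04), while other CHGA-high cells held 2564, 1896 and 2752 CPM. SCG5, the partner of the PCSK2 convertase, was 817, 419 and 344 CPM. MEIS2 was 99.4, 119 and 44.4 CPM and ETV1 339.8, 123 and 162 CPM, and both were also lower in KO than in WT among other CHGA-high cells.

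Other genes higher in KO included PCP4, a calmodulin-binding protein, at 272, 1044 and 1464 CPM, 5.39-fold higher in KO (4.61 to 6.33) against 1.23-fold in other CHGA-high cells. ONECUT3, a factor of the hepatocyte nuclear factor 6 family, was 8.29, 43.6 and 112 CPM, 13.5-fold higher (5.72 to 41.8). Other CHGA-high cells held more of it, at 146, 209 and 447 CPM. SPINK1, a trypsin inhibitor, was 194, 251 and 564 CPM, and S100A14, a calcium-binding protein, 24.9, 45.3 and 146 CPM. Both were highest in KO, by 2.91- and 5.88-fold over WT, against 1.46-fold higher and 1.40-fold lower in other CHGA-high cells.

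Several alpha cell markers were lower in KO and HET. Of 11 alpha cell markers tested, GCG, IRX1, IRX2, LOXL4 and GC were 2-fold lower in KO than in WT, DPP4 was higher and 5 were within 2-fold, where 3.33% of all genes were lower. IRX2, an alpha cell factor, was 146, 67.1 and 59.0 CPM. LOXL4, a lysyl oxidase, was 471, 94.8 and 123 CPM in GHRL-high cells, while other CHGA-high cells held 98.0, 97.6 and 89.8 CPM. TTR was 1.75-fold lower in KO than in WT and 3.30-fold lower in other CHGA-high cells. IRX1 and SCG5 were no longer called without their top cells.

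Several other genes were high in WT alone. LMO2, a transcriptional cofactor, was 86.2, 16.8 and 6.60 CPM, NKAIN4 123, 14.3 and 11.8 CPM and PGA5, a pepsinogen with near-identical copies that may share its reads, 194, 16.8 and 19.1 CPM. LMO2 and NKAIN4 were in the same order in other CHGA-high cells, at 227, 79.8 and 11.2 CPM and at 131, 49.3 and 4.04 CPM. NPY was 37.8-fold lower in KO than in WT (25.3 to 58.8) and 28.2-fold lower in HET (16.7 to 51.3). TAGLN, a smooth muscle and mesenchymal gene, was 167, 59.6 and 17.4 CPM, and KO no longer stood below WT when the top 8% of doublet scores were removed. KRT23 and PTF1A were called lower in KO and HET, but neither call was kept without the top WT cell.

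HET differed from KO in a few genes. FOSB, an immediate early gene that cell handling can raise, was 6.63, 139 and 46.2 CPM, and in other CHGA-high cells 20.5, 155 and 92.2 CPM. CXCL14, a chemokine, was 0, 109.9 and 9.37 CPM. IGFBP7, which binds insulin-like growth factors, was 128, 138 and 27.1 CPM, and ANKRD1, a stretch-responsive gene, 177, 182 and 37.5 CPM; both were lower in KO than in HET, by 5.08- and 4.85-fold. None of 25 IRE1-XBP1 genes at 50 CPM was 2-fold apart between KO and WT or between HET and WT. XBP1, its central factor, was 189, 159 and 159.7 CPM.

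Genes also varied among the GHRL-high cells of a library. The variance of the count divided by its mean had a median near 1.1 over all genes. For GCG it was 449 in WT, 557 in HET and 67.3 in KO, and for GHRL it was 168 in WT and 106 in KO. In HET, MLN (262) and SST (220) came next, both with most counts in 1 cell. In KO, TTR (203) stood first, and CRH (25.99) was among the leading hormone genes.

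The cells were split by GHRL, CRH, INS and CHGA after these values had been seen, and the genes named from these splits were chosen from their results. The gene that made a split was not left out of its counts of genes, and its own difference follows from the split. Between cells with GHRL of 100 or more (27, 44 and 122) and those with 25 to 100 (14, 28 and 89), 10 of 4683 genes were higher (0.214%) and 8 lower (0.171%) in all 3 libraries. IL20RA was 79.6, 378 and 218 CPM in the first and 0, 15.1 and 18.7 CPM in the second. SERPINA1, a protease inhibitor of liver and islet, was 364, 283 and 223 CPM against 16.8, 37.8 and 64.8, and ACOT7 142, 180 and 182 CPM against 50.4, 68.1 and 74.9. INS went the other way, at 444, 1660.3 and 1333 CPM against 3530.4, 6614 and 3078.

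A split by CRH was possible in HET and KO. Cells with at least 5 of 5000 UMIs (32 and 98) were set against cells with none (18 and 40), and 27 of 4345 genes were higher (0.621%) and 44 lower (1.01%) in both libraries. SPINK1 was 388 and 748 CPM in CRH cells against 126 and 246. TTR was 30779 and 20209 CPM against 10664 and 9777. ONECUT3 was lower, at 13.8 and 63.4 CPM against 114 and 264, and so was CDX2, an intestinal factor, by 6.85- and 2.76-fold. GHRL itself was 1.57- and 1.56-fold higher in the CRH cells.

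INS and CHGA also divided the cells. HET and KO cells with INS at this level (20 and 62) held more PPY, GCG, SST and GAL than cells with none (30 and 80); 12 of 4189 genes were higher (0.286%) and 42 lower (1%). GHRL was 14463 and 18332 CPM in the INS cells against 23507 and 19449. In KO alone, the 18 cells with CHGA below 10 per 10000 were set against the other 193, and 378 of 3967 genes were higher (9.53%) and 406 lower (10.2%). These counts rest on 1 library and on 160506 UMIs in the 18 cells, 8 of which held fewer than 3000, so they cannot be set beside those of the other splits. NEUROG3 was 62.3 CPM in these 18 cells against 2.57 in the rest, and CCND1, a cyclin of dividing cells, 480 against 62.8 CPM. At 160506 UMIs the NEUROG3 level rests on few counts, and how many of the 18 cells held it was not counted. CRH was lower in them, at 174 against 2807 CPM, and so was GHRL, at 8317 against 21255 CPM.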

How the data were processed

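The authors deposited raw UMI counts per gene and barcode for 3 libraries, 1 per genotype, in tables that, per the file headers, Cell Ranger 6.1.2 produced. GRCh38 and Seurat are listed in the submitters' processing notes; annotation release and strand setting are not stated there. Each table had 33538 genes. The GHRL-high cells, the markers and the gene lists were chosen with earlier results of these data known.

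Counts were summed per library over GHRL-high cells, other CHGA-high cells and the remaining barcodes. The GHRL-high sums held 592840, 1164645 and 2884415 UMIs, which limits precision in WT. Sums were scaled to CPM with TMM factors over the 6 sums (edgeR 4.0.16, R 4.3.3), and no model was fitted. The splits of the GHRL-high cells, PAX6 by GHRL level among them, used plain UMI totals without these factors. Ratios have exact conditional Poisson intervals and shares exact (Clopper-Pearson) binomial intervals. A gene at 0 was set to 3 counts in its sum. Shares of cells with a hormone were taken after thinning to 5000 UMIs. Scrublet (scanpy 1.11.5) scored doublets. The comparison script was tested on simulated data.

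Genes were named by these rules: the 15 genes furthest apart in each direction from other CHGA-high cells, the 10 furthest apart between each pair of genotypes, list genes at 5 CPM or more, and a short set always given. Coordinates are from GENCODE on GRCh38 and promoter windows from RefSeq.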

Additional observations from a re-analysis of the deposited data

Results flagged for a closer look

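APOA2, a lipoprotein gene, differed in direction between the cell classes. KO against WT its log2 ratio was 1.66 in GHRL-high cells (1.27 to 2.07) and -1.66 in other CHGA-high cells. Its levels were 94.5 and 299 CPM in WT and KO GHRL-high cells and 861 and 272 CPM in the others.

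GC, the vitamin D-binding protein gene of alpha cells, went the opposite way, with a log2 ratio of -2.04 in GHRL-high cells (-2.34 to -1.75) and 1.247 in other CHGA-high cells. Each genotype had 1 library, so neither difference between classes was tested.

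Among barcodes that failed the filters, GHRL reached 25 per 10000 UMIs in 7 of 1179 WT barcodes (0.594%, 0.239 to 1.22), 6 of 1334 HET barcodes (0.450%, 0.165 to 0.976) and 26 of 1045 KO barcodes (2.49%, 1.63 to 3.62). These barcodes entered no comparison.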

How the results depend on the processing

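No paired analysis was possible because each genotype had 1 library. Plain CPM, DESeq2 size factors, means over cells, GHRL-high cells restricted to CHGA of 10 or more and comparison cells with CHGA of 20 or more left every count of genes within 1.5 times its value.

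The minimum level moved all counts. With no minimum they were 385 higher and 211 lower for the profile, 1248 and 1725 for KO against WT, 1424 and 823 for HET against WT, and 880 and 923 for KO against HET. At 200 CPM they were 18 and 13, 37 and 23, 20 and 18, and 3 and 7. At GHRL of 100 or more, 260 genes were higher in KO than in WT, 160 higher in HET than in WT, and 60 higher and 84 lower in KO than in HET. Without the top 8% of doublet scores, HET against WT gave 173 and 150. Against comparison cells without INS, GCG, SST or PPY, 85 genes were higher. Without each gene's top cell, 35 genes were higher in the profile, 71 lower in KO than in WT and 61 lower in HET than in WT. As said above, that step itself favours lower calls in the profile and higher calls against WT.

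Shares of kept barcodes were 0.836%, 1.16% and 3.05% at a GHRL threshold of 10, 0.675% in HET and 2.02% in KO at 50, and 0.318%, 0.531% and 1.41% at 100. Requiring 3000 UMIs or more and no more than 10% mitochondrial ones, the KO share was 1.65%. GAST was found in 0% of WT GHRL-high cells once high doublet scores were removed.

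Some log2 ratios changed sign. At GHRL of 100 or more, PPY was 0.86 for KO against HET and SST 0.16 for KO against WT. Without high doublet scores, TAGLN was 0.20 for KO against WT and GAST 3.14 for HET against WT. Without the top cell, PTF1A was 0.72 for KO against WT, MLN -2.05 for HET against WT and 1.52 for KO against HET, and GAST 0.00993 for HET against WT. The cause of these changes was not tested beyond the removal of cells itself. Depth limits the WT values most, since 41 cells carry them.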
